A study of Mus musculus with 12 samples.

Results

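Metabolic myokines are proteins that skeletal muscle secretes and that act on energy use in muscle itself, fat, liver or bone. The 9 described here are Fndc5, Il15, Il7, Metrnl, Ostn, Erfe, Fgf21, Angptl4 and Chi3l1. They were taken from the 56941 rows of a gene count table by symbol, which found 8 of them. The other one, Chi3l1, is listed there under its mouse symbol Chil1 and was found through the synonym that RefSeq gives. The table holds 12 wells of C2C12, mouse myoblasts that can fuse into many-nucleated myotubes. The genotype label is ChR2::tdTomato for 6 wells, a line with a light-gated cation channel fused to a red fluorescent protein, and Wild-Type for the other 6. All 12 wells stood on a fibrin gel and were differentiated for 6 days with IGF-1, aminocaproic acid and horse serum in the medium, and no label mentions light. The comparison asks how the optogenetic line (ChR2) differs from the wild-type line in these transcripts. Each group is wells of 1 line and no label says that they were separate cultures, so a p-value here reflects only how far these wells vary, which may be technical. The transgene and the separate history of each line cannot be told apart. The transgene was not analysed here, and the sources used here name no promoter for it.

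The members act by different routes. Fndc5 is a membrane protein whose shed ectodomain is called irisin, made in muscle under control of the coactivator Ppargc1a. Il15 and Il7 are cytokines of the common gamma chain family, and Erfe (erythroferrone, also called myonectin) binds bone morphogenetic proteins. Ostn (osteocrin, musclin) binds the natriuretic peptide clearance receptor, Fgf21 signals through fibroblast growth factor receptors with the co-receptor Klb, and Angptl4 inhibits lipoprotein lipase.

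Total estimated counts were 7388761 to 12229458 in ChR2 wells and 10268067 to 13628569 in wild-type wells 1, 3, 4 and 6, but 1061068 in wild-type well 2 and 2809669 in well 5. In the last pair the 7SL RNA, which has no poly(A) tail, took 24.8% and 8.37% of the counts, against at most 0.0341% in any other well. Low-input samples were made by ribosomal RNA depletion according to the protocol, which does not name them. Results of the members and the counts of each gene list are therefore given over 12 wells and over the 10 without this pair. Values of single genes in the lists are over 12 wells unless 10 are named. A count of 3, taken as the floor of detection, equals 3.93 CPM (counts scaled to library size) in wild-type well 2, 1.07 CPM in well 5 and 0.220 to 0.412 CPM elsewhere. All 10 myotube markers were detected, at a summed 14371 to 18867 CPM in ChR2 and 13297 to 28423 CPM in wild-type wells. Lower in ChR2 were 3 of the 10, where 14.1% of all genes tested were lower. The 6 hepatocyte markers, such as albumin, were at 0 in all wells, and the 8 adipocyte markers together reached at most 0.450 CPM. Both of those cell types are known sources of Fgf21 and Angptl4. The 7 macrophage markers summed to 3.02 to 6.32 CPM in ChR2 and 3.93 to 9.72 CPM in wild-type wells, with C1qa at 0. Cd68 made up most of it in every well but wild-type well 2, where the sum rests on 1 count each of Cd68, Itgam and Lyz2. The 6 endothelial markers reached at most 0.962 CPM, with Emcn at 0. The 8 fibroblast markers, several of which myoblasts also make, summed to 3043 to 3668 CPM in ChR2 and 888 to 3300 CPM in wild-type wells. Col3a1 and Col1a1 made up most of it in every well, and Lum and Thy1 reached at most 0.549 and 0.147 CPM. Higher in ChR2 were 2 of the 6 tested, where 14.0% of all genes tested were higher. The part of any of these markers in the results was not tested. In bulk samples such as these, fewer cells of a type and less RNA per cell cannot be told apart.

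In ChR2 wells the transcripts of Il15 and Erfe were higher, each about 2.5-fold, and that of Fndc5 was lower, 2.19-fold. The other 4 tested members, Metrnl, Fgf21, Angptl4 and Chil1, did not pass the test. Il7 and Ostn had too few counts to enter it. So 7 of 9 members were tested, and 2 were called higher and 1 lower (42.9%), where 28.1% of all 13168 genes tested were called, 14.0% higher and 14.1% lower. Called means a Benjamini-Hochberg adjusted p under 0.05 in edgeR's quasi-likelihood test across all genes. The same 3 members were called without wild-type wells 2 and 5, where the background was 35.2%. Over 12 wells they were also the 3 tested members whose lines did not overlap in CPM, against 15.1% of all genes tested, 8.57% with ChR2 above and 6.52% with ChR2 below. Without wild-type wells 2 and 5 the same 3 did not overlap, against 25.0%. The median log2 fold change of the 7 tested members was 0.01, beside -0.02 over all genes tested. With 7 tested genes these shares are coarse, and nothing particular to the members is read from them. Limma voom with sample quality weights also called Metrnl higher (0.36, adjusted p = 0.0479) and Angptl4 (-0.63, adjusted p = 0.0391) and Chil1 (-0.47, adjusted p = 0.0196) lower, in a fit that called 41.5% of all genes.

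**Figure D1:**
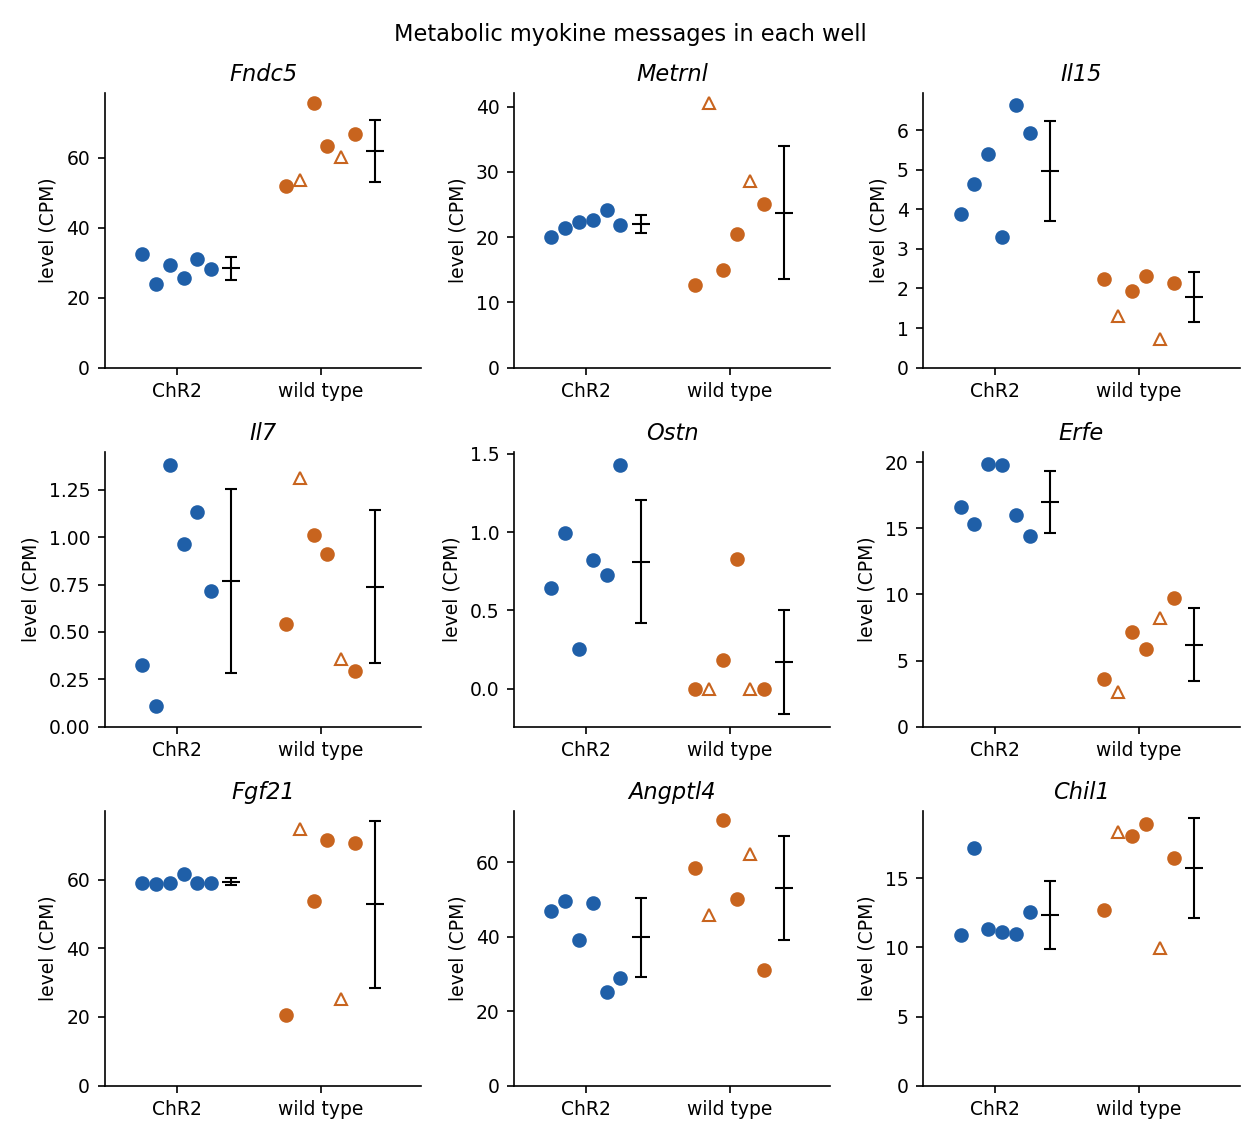
CPM of each of the 9 members in each of the 12 wells, one panel per gene, ChR2 wells beside wild-type wells; bars give the mean and SD and open triangles mark wild-type wells 2 and 5. The lines separate fully for Fndc5, Il15 and Erfe, and the 6 ChR2 values of Fgf21 sit between 58.7 and 61.5 CPM while wild-type values run from 20.7 to 74.7 CPM.

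Fndc5 (ENSMUSG00000001334, chr4:129136999-129144593, plus strand; positions of genes are from GENCODE M21 on GRCm38) lay lowest at 23.9, at a median of 28.9 and highest at 32.6 CPM in ChR2 wells. In wild-type wells its lowest, median and highest levels were 52.0, 61.8 and 75.8 CPM. Every wild-type well was above every ChR2 well, and wild-type wells 2 and 5, at 53.7 and 60.3 CPM, lay among the others. The means were 28.5 ± 3.29 and 62.0 ± 8.81 CPM (SD, n = 6 each). The log2 fold change of Fndc5 was -1.13 (SE 0.12, 95% interval -1.39 to -0.88; edgeR adjusted p = 3.93e-05), and -1.16 without wild-type wells 2 and 5 (adjusted p = 1.64e-05). In a limma fit on log2(TPM + 1) of all 12 wells, where the median of all genes lay at 0.35, Fndc5 was at -0.64 and did not pass (adjusted p = 0.386), and over 10 wells it passed at -1.17 (adjusted p = 0.000277).

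Il15 (ENSMUSG00000031712, chr8:82331632-82403222, minus strand), a cytokine made by muscle fibres that acts on lymphocytes and on fat mass, was scarce in both lines. Its lowest, median and highest levels were 3.30, 5.02 and 6.63 CPM in ChR2 wells and 0.714, 2.03 and 2.33 CPM in wild-type wells. The highest wild-type well stayed below the lowest ChR2 well. Wild-type wells 2 and 5 held 1 and 2 counts, under the floor, and the 4 other wild-type wells gave 2.16 ± 0.171 CPM (SD, n = 4). Il15 was higher in ChR2 by 1.33 on the log2 scale (SE 0.25, 95% interval 0.79 to 1.87; edgeR adjusted p = 0.00173), a 2.51-fold rise. Over 10 wells the log2 fold change was 1.22 (interval 0.73 to 1.71; adjusted p = 0.00126).

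Il7 (ENSMUSG00000040329, chr3:7569994-7613760, minus strand), a growth factor for lymphocytes, was near the floor everywhere, with 1 to 14 counts a well. Its lowest, median and highest levels were 0.110, 0.838 and 1.38 CPM in ChR2 and 0.293, 0.727 and 1.31 CPM in wild-type wells. The lines overlapped over most of their ranges. The means of 0.771 ± 0.486 and 0.738 ± 0.404 CPM (SD, n = 6 each) differed by 0.0326 CPM, with p = 0.900 in an exact two-sided permutation test over the 924 arrangements of wells. No difference in Il7 was detected, nor over 10 wells (0.0804 CPM, exact permutation p = 0.790). An antisense gene, Gm16685, overlaps Il7. It had 0 counts in ChR2 wells and 8 in all, in wild-type wells 4 and 5, at 0.581 and 0.357 CPM where Il7 was at 0.914 and 0.357 CPM, so reads of the pair cannot be told apart there if counting ignored strand.

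Erfe (ENSMUSG00000047443, chr1:91366430-91374217, plus strand), a hormone of the C1q and tumour necrosis factor related family that lowers hepcidin, was measured at 14.4, 16.3 and 19.9 CPM as lowest, median and highest in ChR2 wells. In wild-type wells the same 3 values were 2.62, 6.54 and 9.75 CPM. No wild-type well reached the lowest ChR2 well, and wild-type well 2 held 2 counts, under the floor. Mean levels were 17.0 ± 2.32 and 6.21 ± 2.73 CPM (SD, n = 6 each). Erfe rose by 1.36 on the log2 scale (SE 0.22, 95% interval 0.88 to 1.83; edgeR adjusted p = 0.000703), 2.56-fold, and by 1.36 again over 10 wells (adjusted p = 0.000489). Its 3' end shares 357 bases with Ilkap on the opposite strand, and the sources used here do not say whether counting used strand. For Ilkap the change was -0.25 on the log2 scale (adjusted p = 0.197), of opposite sign.

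Metrnl (ENSMUSG00000039208, chr11:121701544-121716306, plus strand), a secreted protein known for effects on adipose thermogenesis, did not pass the test. Its lowest, median and highest levels were 20.0, 22.1 and 24.2 CPM in ChR2 wells against 12.7, 22.8 and 40.6 CPM in wild-type wells. The ChR2 values all lay inside the wild-type range, whose top was well 2. The log2 fold change of Metrnl was 0.01 with a 95% interval of -0.44 to 0.47 (edgeR adjusted p = 0.970), and 0.28 (-0.06 to 0.63; adjusted p = 0.190) over 10 wells.

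Ostn (ENSMUSG00000052276, chr16:27307489-27351212, plus strand) was the rarest member in wild-type cells. Its levels were 0.252, 0.776 and 1.43 CPM as lowest, median and highest in ChR2 wells, from 8, 9, 2, 6, 9 and 14 counts in wells 1 to 6. In wild-type wells the lowest and the median were 0 and the highest was 0.831 CPM, with 0, 0, 2, 10, 0 and 0 counts. Wild-type well 4 alone lay among the ChR2 wells. Mean levels were 0.811 ± 0.390 and 0.169 ± 0.332 CPM (SD, n = 6 each), a difference of 0.642 CPM (exact two-sided permutation p = 0.0152, adjusted over Il7 and Ostn 0.0303). Without wild-type wells 2 and 5, which held 0 counts at floors of 3.93 and 1.07 CPM, the difference of 0.558 CPM did not pass (exact permutation p = 0.0714, adjusted 0.143). The smallest p this test can give is 0.00216 over 12 wells and 0.00476 over 10.

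Fgf21 (ENSMUSG00000030827, chr7:45613886-45615490, minus strand), the endocrine fibroblast growth factor that muscle releases in mitochondrial and amino acid stress, did not pass the test. It stood at 58.7, 59.0 and 61.5 CPM as lowest, median and highest in ChR2 wells and at 20.7, 62.2 and 74.7 CPM in wild-type wells. Wild-type wells 1 and 5 were low, at 20.7 and 25.3 CPM, and the remaining wild-type wells lay between 53.6 and 74.7 CPM, on both sides of the ChR2 wells. The log2 fold change was 0.19 (SE 0.26, 95% interval -0.37 to 0.75; edgeR adjusted p = 0.623), and 0.15 (-0.46 to 0.75; adjusted p = 0.714) over 10 wells. The coefficient of variation of Fgf21 was 1.82% across ChR2 wells, less than the 4.23% that counting error alone would give, and 45.9% across wild-type wells, where counting error would give 8.65%. The difference in spread between the lines was not tested.

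For the 2 members below, sequence next to the gene start is shown. Fgf21 was chosen because its promoter is a textbook target of the stress factor ATF4. Erfe was chosen after its values were seen, as a member that was called. The sequences are RefSeq's on GRCm38.p6, 5' to 3' on the gene's own strand. The Fgf21 stretch, chr7:45615491-45615740 (minus strand), ends at the base before the start. The Erfe stretch, chr1:91366180-91366304 (plus strand), ends earlier, before the most upstream start that RefSeq gives the gene, and so stops 125 bases short of the GENCODE start printed above. Capitals mark TTGCATCA, a reverse-strand match to the ATF4 element TGATGNAA, and the E-box CACGTG.
Fgf21: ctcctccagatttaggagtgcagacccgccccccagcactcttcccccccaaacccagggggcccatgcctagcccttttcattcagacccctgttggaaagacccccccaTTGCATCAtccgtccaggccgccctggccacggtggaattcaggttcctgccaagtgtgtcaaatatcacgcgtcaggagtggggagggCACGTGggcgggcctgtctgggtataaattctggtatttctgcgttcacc
Erfe: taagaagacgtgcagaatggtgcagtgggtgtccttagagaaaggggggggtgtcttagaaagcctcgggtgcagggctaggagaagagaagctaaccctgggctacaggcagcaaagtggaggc

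RefSeq's table of 300-base promoter windows held 5 of the 9 members, Fndc5, Metrnl, Erfe, Fgf21 and Chil1. Both strands were searched for TGATGNAA, CACGTG, the myogenic E-box CAGCTG and the PPAR element, a direct repeat of AGGTCA with any 1 base between the copies, none of which overlapped another here. Among the 5 windows TGATGNAA occurred only in that of Fgf21, at -139 to -132 from the start, and 3.97% of all 32851 windows hold it. CACGTG also occurred only there, at -50 to -45, and is in 7.15% of windows. CAGCTG was found in the Fgf21 window at 20 to 25 and in the Metrnl window at -38 to -33, and is in 16.3% of windows. The PPAR element was in none of the 5 and is in 0.0396% of all windows. A match describes letters and is not a measured site.

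Angptl4 (ENSMUSG00000002289, chr17:33773750-33781830, minus strand), which is induced by fatty acids and fasting in muscle, lay at 25.1, 43.0 and 49.6 CPM as lowest, median and highest in ChR2 wells. Wild-type wells gave 31.1, 54.2 and 71.3 CPM. The lines overlapped: ChR2 wells 5 and 6 and wild-type well 6 were all at or under 31.1 CPM. The log2 fold change was -0.43 (SE 0.21, 95% interval -0.87 to 0.02; edgeR adjusted p = 0.144) and -0.39 over 10 wells (adjusted p = 0.249). Leaving out wild-type well 6 alone brought Angptl4 past the threshold (-0.55, edgeR adjusted p = 0.0363), in a fit that called 31.0% of all genes.

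Chil1 (ENSMUSG00000064246, chr1:134182176-134190181, plus strand), a chitinase-like lectin without enzyme activity that differentiating muscle cells secrete, had 10.9, 11.2 and 17.2 CPM as lowest, median and highest in ChR2 wells. In wild-type wells the values were 9.99, 17.3 and 18.9 CPM. ChR2 well 2 sat with the upper wild-type wells, and wild-type wells 1 and 5 sat with the ChR2 wells. The log2 fold change of Chil1 was -0.35 (SE 0.18, 95% interval -0.72 to 0.02; edgeR adjusted p = 0.149). Over 10 wells it was -0.41 (-0.74 to -0.08; adjusted p = 0.0529), just outside the threshold.

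**Figure D2:**
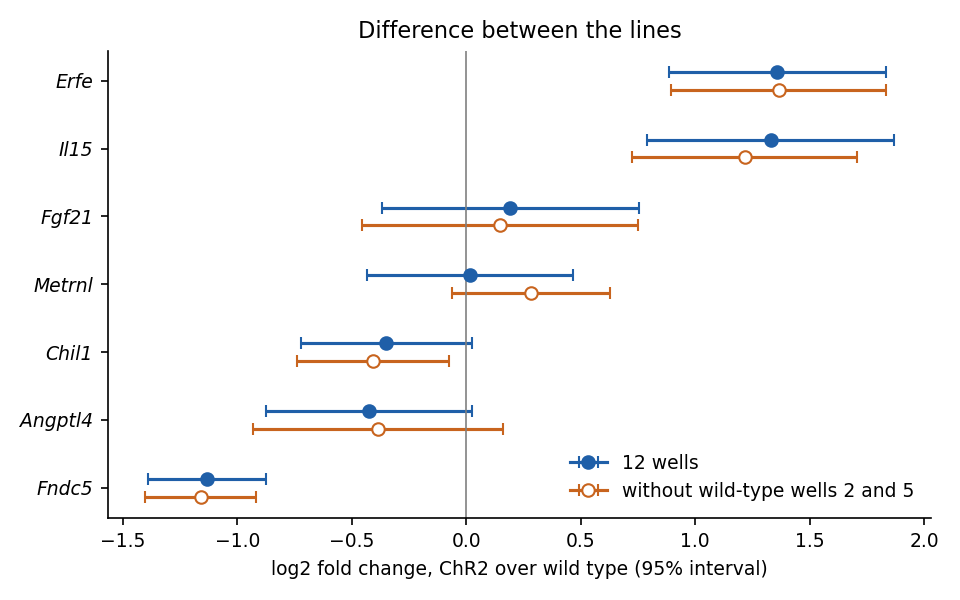
Log2 fold change of the 7 tested members, ChR2 over wild type, with 95% intervals from edgeR, over 12 wells and over the 10 wells without wild-type wells 2 and 5. The intervals of Fndc5, Il15 and Erfe clear 0 in both, from -1.39 to -0.88 for Fndc5 over 12 wells, and those of Fgf21 and Metrnl span it.

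Compared per transcript length, in the deposited TPM values, Fgf21 was the most abundant member in ChR2 cells, at 99.5 ± 7.89 TPM (SD, n = 6). Angptl4 (28.5 ± 8.51), Chil1 (26.0 ± 4.48) and Metrnl (23.5 ± 1.62 TPM) followed, and these neighbours overlapped from well to well. Next came Fndc5 at 14.0 ± 2.49 TPM, then Erfe at 8.21 ± 1.49 and Il15 at 6.65 ± 1.36 TPM, whose ranges overlapped. Ostn (0.814 ± 0.354) and Il7 (0.434 ± 0.266 TPM) were the scarcest, and also overlapped.

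The order in the 4 wild-type wells without wells 2 and 5 began the same way, with Fgf21 at 94.4 ± 39.0, Angptl4 at 39.8 ± 14.8 and Chil1 at 34.6 ± 5.98 TPM (SD, n = 4). These neighbours overlapped, and so did Fndc5, the next at 32.7 ± 5.50 TPM, with Chil1. Fndc5 was above Metrnl at 20.2 ± 4.55 TPM in every well. In ChR2 cells Metrnl was above Fndc5 in all 6 wells. Erfe (3.31 ± 1.15), Il15 (2.85 ± 0.261), Il7 (0.402 ± 0.161) and Ostn (0.276 ± 0.424 TPM) closed the list. With all 6 wild-type wells the levels were lower for every member, for example 71.5 ± 46.7 TPM for Fgf21 and 25.7 ± 12.4 TPM for Fndc5, and Fndc5 was above Metrnl in 4 of 6 wells.

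**Figure D3:**
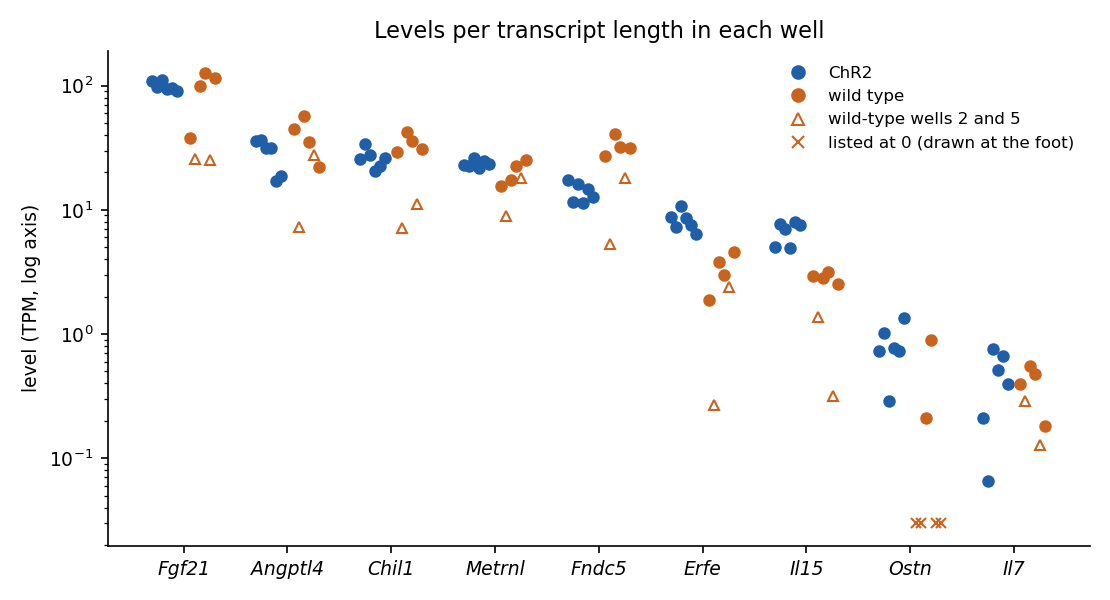
TPM of the 9 members on a log axis, ordered by level in ChR2 cells, one point per well. Open triangles mark wild-type wells 2 and 5, and crosses at the foot mark wells listed at 0. By mean level, which is not drawn, Fgf21 leads in both lines and Il7 and Ostn are lowest. Fndc5 stands above Metrnl in 4 of 6 wild-type wells and below it in all 6 ChR2 wells.

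The genes whose profile lay closest to each tested member's were sought among about 10965 genes with at least 5 CPM, by the root mean square difference of centred log2 CPM over 10 wells. For Fndc5 they were Pcx (pyruvate carboxylase) at 0.0894, Gpd1l at 0.134 and Dhcr7, an enzyme of cholesterol synthesis, at 0.172, beside a median of 0.609 over all candidates. For Il15 they were Atcayos, Dock9 and Primpol, at 0.129 to 0.188. For Erfe they were Racgap1, Phf19 and Sgo2a, at 0.153 to 0.169, and Racgap1 and Sgo2a act in cell division. Metrnl ran closest to Lifr, Tgfb2 and Asph, at 0.0700 to 0.0925, and Fgf21 to Islr, Slit2 and Prkg1, at 0.110 to 0.164. Angptl4 was nearest to Aqp5, Sgk1 and Ovca2, at 0.197 to 0.211, and Chil1 to Tnrc6b, Ccdc88c and Cep350, at 0.103 to 0.126. The wells all share the contrast between lines, so a small distance describes these 10 wells only.

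Receptors and binding partners of the members changed in both directions. Of 26 listed genes 18 were tested, 7 were higher and 3 lower in ChR2 (55.6% called, against 28.1% of all genes), and the median log2 fold change was 0.21 beside -0.02. Over 10 wells 8 were higher and 4 lower (66.7%, against 35.2%). The largest rises were Fgfr2, a receptor of the fibroblast growth factor family (1.96, SE 0.34, edgeR adjusted p = 0.000921), Bmp4 (1.59, SE 0.29, adjusted p = 0.00138) and Npr3 (1.57, SE 0.35, adjusted p = 0.00424). Their levels were low, 1.60 ± 0.302 against 0.576 ± 0.404 CPM for Fgfr2 and 3.90 ± 0.743 against 1.22 ± 0.834 CPM for Bmp4, a ligand of the family that Erfe binds (SD, n = 6 each). Npr3, the clearance receptor that Ostn occupies, stood at 5.91 ± 2.11 and 2.12 ± 0.986 CPM, with no overlap between the lines.

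All 3 falls over 12 wells were receptors of the same family as Fgfr2, and all 4 of these receptors kept their direction under each scaling tried. Fgfr3 fell by 1.16 on the log2 scale (adjusted p = 0.00324), from 24.1 ± 8.41 CPM in wild type to 10.1 ± 2.95 CPM in ChR2. Fgfr1, the partner of Klb for Fgf21 and the most abundant of these in CPM, fell by 0.51 (adjusted p = 0.00753), from 175 ± 31.5 to 122 ± 9.07 CPM. Its log2 fold change over 10 wells was -0.34 (edgeR adjusted p = 0.00870). Fgfr4 had a log2 fold change of -0.74 at an adjusted p of 0.0486. This call was lost when any ChR2 well or wild-type well 2, 3, 4 or 6 was left out, the adjusted p rising to at most 0.129. Over 10 wells Fgfr4 was called at -0.87 (edgeR adjusted p = 0.0239). The co-receptor Klb itself had 1 count in 12 wells. Over 10 wells Bmpr1a, a receptor of bone morphogenetic proteins named after its values were seen, was also lower (-0.34, edgeR adjusted p = 0.00912). Over 12 wells Bmpr1a did not pass (-0.23, edgeR adjusted p = 0.257).

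Other partners, chosen for mention after their values were seen, were these. Itgav, the alpha chain of an integrin proposed as irisin receptor, was higher in ChR2 by 0.44 (adjusted p = 0.0161), while its partner Itgb5 did not pass (-0.04, adjusted p = 0.895). Over 10 wells Itgb5 was at 0.19 and did not pass either (edgeR adjusted p = 0.308). Il2rg, the common gamma chain of the Il15 and Il7 receptors, was higher by 1.20 (adjusted p = 0.0251). Il2rb did not pass (-0.08, adjusted p = 0.990, and 0.14 over 10 wells, edgeR adjusted p = 0.725). Il15ra was under the filter, at 0.577 ± 0.337 and 0.684 ± 0.418 CPM. Il7r, Kit, a reported Metrnl receptor, and Gpihbp1, which anchors lipoprotein lipase on capillaries, had 0 counts in all 12 wells, which allows up to 3 counts in a well. Lpl, the lipase that Angptl4 inhibits, was higher by 0.68 (adjusted p = 0.0260), and by 0.54 over 10 wells (edgeR adjusted p = 0.0489). Bmp6 was higher by 1.13 (adjusted p = 0.0213), at low levels of 1.40 ± 0.306 against 0.585 ± 0.388 CPM.

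Upstream regulators of the members were split evenly. Of 30 listed genes 28 were tested, 7 were higher and 7 lower (50.0%, against 28.1% of all genes), and the median log2 fold change was 0.02. Over 10 wells 7 were higher and 4 lower (39.3%, against 35.2% of all genes), the falls of Cebpb, Furin and Stat5a not passing there. Ddit3, a transcription factor of the integrated stress response, rose by 1.50 (SE 0.26, edgeR adjusted p = 0.000983), from 18.3 ± 10.7 CPM in wild type to 55.7 ± 8.99 CPM in ChR2, with no overlap. Pparg rose by 0.72 (adjusted p = 0.00526), from 6.04 ± 1.24 to 9.57 ± 1.25 CPM. Esrrg, an orphan nuclear receptor, had 1.72 (adjusted p = 0.0274), and this call was lost without ChR2 well 1, 5 or 6 or wild-type well 3. Its levels were near the floor in wild type, 2.22 ± 0.701 CPM in ChR2 against 0.489 ± 0.632 CPM. Wild-type wells held 37 counts in all, and 3 of the 12 wells were at 0.

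The list also holds 4 other genes of the integrated stress response, grouped here after their values were seen, of which 3 were called. Atf4 was higher by 0.37 (adjusted p = 0.0352), at 356 ± 17.1 against 276 ± 47.0 CPM, Atf5 by 0.60 (adjusted p = 0.0148) and the kinase gene Eif2ak3 by 0.60 (adjusted p = 0.00227). A second kinase gene of the response, Eif2ak4, did not pass (0.18, adjusted p = 0.360). Fgf21, whose promoter holds the match printed above, did not pass over the same wells. A link between these genes and Fgf21 was not tested.

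Ppargc1b, a coactivator of oxidative metabolism, fell by 1.14 (SE 0.26, adjusted p = 0.00486), from 26.7 ± 14.1 to 10.9 ± 2.14 CPM, and by 0.75 over 10 wells. Its relative Ppargc1a, which is known to drive Fndc5, did not pass (0.15, adjusted p = 0.821; 7.68 ± 1.87 and 6.02 ± 5.33 CPM). Cebpb had -0.88 (adjusted p = 0.0372) and Furin, the protease that cleaves several of these precursors, -0.71 (adjusted p = 0.0359). Both calls were lost without any ChR2 well or wild-type well 2 or 5, that of Furin also without wild-type well 3, and the adjusted p over 10 wells was 0.116 for Cebpb and 0.129 for Furin.

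Among genes of fatty acid use that respond to PPAR factors, as Angptl4 and Fgf21 do, 21 of 24 listed were tested, 9 were lower and 1 higher (47.6%, against 28.1% of all genes), and their median was -0.13 on the log2 scale. Over 10 wells 7 were lower and 1 higher (38.1%), a share near the 35.2% of all genes, and the median was -0.19. Acot1 fell by 1.07 (SE 0.24, edgeR adjusted p = 0.00498) and its near-identical neighbour Acot2 was the 1 that rose (0.58, adjusted p = 0.0196), so how reads were split between this pair is uncertain. Ucp3, a mitochondrial carrier, stood at 21.1 ± 10.8 CPM in wild type and 10.4 ± 1.83 CPM in ChR2 (adjusted p = 0.0281), a call lost without ChR2 well 1, 3, 4, 5 or 6 or wild-type well 3 or 6. Over 10 wells Ucp3 was called at -1.11 (edgeR adjusted p = 0.0122). Pdk4, which blocks the entry of pyruvate into the citric acid cycle, fell by 0.67 (adjusted p = 0.0152), from 36.3 ± 9.45 to 22.9 ± 4.84 CPM. Among those named after their values were seen, Acadl, an acyl-CoA dehydrogenase, fell by 0.63 (adjusted p = 0.000395), from 240 ± 17.6 to 155 ± 7.03 CPM with no overlap, and Slc25a20, the carnitine carrier, by 0.67 (adjusted p = 0.00227). Cpt1a, Hadha and Acadm did not pass, at log2 fold changes of -0.06, -0.00 and 0.07.

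Paralogs of the members were called at about the background rate. Of 36 listed 15 were tested, 4 were higher and 0 lower (26.7%, against 28.1%), with a median of 0.20. No tested paralog was lower at an unadjusted p under 0.05 in edgeR either, where 2760 of all 13168 genes tested were. DESeq2 and limma voom, on the same wells, also called 0 lower. Among all genes tested 14.1% were called lower, so 0 of 15 is a coarse count and nothing is read from it. Over 10 wells 5 paralogs were higher and 0 lower (33.3%, against 35.2% of all genes). Fndc1, which shares the fibronectin type III domain with Fndc5, rose by 1.36 (SE 0.37, edgeR adjusted p = 0.0134), from 111 ± 83.6 to 292 ± 36.4 CPM with no overlap, opposite in sign to Fndc5. Over 10 wells its adjusted p was 0.0692. Fndc3a rose by 0.65 (adjusted p = 0.00328) and C1qtnf1, of the family of Erfe, by 0.73 (adjusted p = 0.0187).

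**Figure D4:**
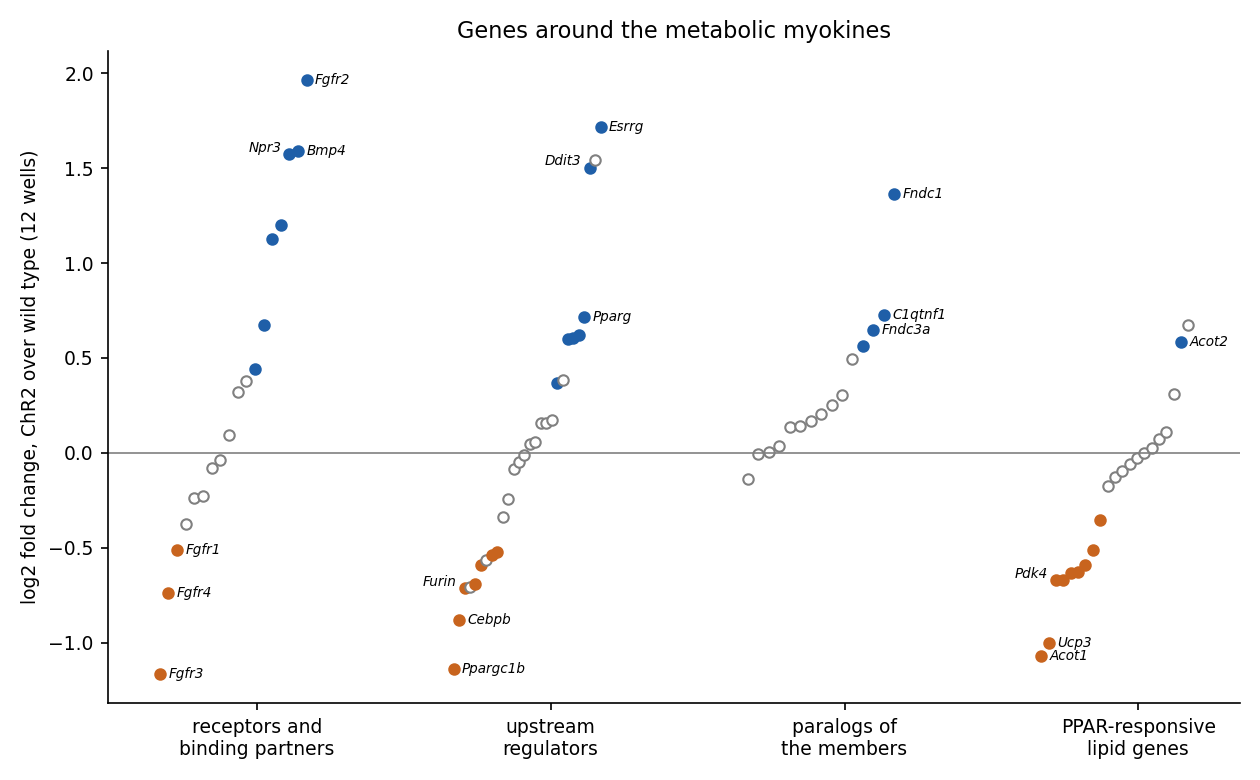
Log2 fold change, ChR2 over wild type in 12 wells, of each tested gene of 4 lists: 18 receptors and binding partners, 28 upstream regulators, 15 paralogs and 21 PPAR-responsive lipid genes; filled points passed edgeR's test (blue higher, orange lower in ChR2) and open points did not. Fgfr2 is the highest point at 1.96 and Fgfr3 the lowest at -1.16, and the lipid genes hold 9 lower points and 1 higher.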

How the data were processed

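RNA of 12 wells was sequenced as paired reads. Per the labels' protocols it was poly(A)-selected or, in low-input samples that are not named, ribodepleted. Both deposited tables cover the same genes and wells: estimated counts, of which 8.19% (zeros included) are not whole, and TPM, scaled by the authors for transcript length and library. The submitters' processing notes name Salmon, STAR, bedtools 2.25.0 and BWA 0.7.12-r1039, with GRCm39, mm10 and hg19 as builds, and give no roles.

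Estimated counts were rounded, filtered by filterByExpr (minimum count 10), scaled by TMM and tested over all genes with edgeR 4.0.16 (quasi-likelihood, robust; R 4.3.3), adjusted p under 0.05. Il7 and Ostn, under the filter, were compared by exact permutation of CPM. CPM uses TMM-scaled library sizes. Reads were amplified and carry no molecular identifiers, so the floor of 3 counts covers counting error only. The script was tested on simulated counts. No pair of same-line libraries agreed within sampling noise (lowest chi-square per degree of freedom 5.09).

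The members and gene lists were chosen with earlier results of these data known. Named were all members, up to 3 rises and 3 falls per list by size of change among called genes of at least 1 CPM, and the 3 nearest profiles per tested member; others are marked in the text. Listed genes matched by symbol; Ddit3 belongs to 2 identifiers, of which the second had 0 counts. Alternatives were other scalings, DESeq2 1.42.0, limma 3.58.1 (voom, and log2 TPM with a pseudocount of 1 or 0.1), other filters, a replicate block and each well left out. They were followed gene by gene only for the members and the list genes named by size of change. For genes chosen after their values were seen, the effect of leaving out a well was not checked. The fit on TPM over 10 wells was added after seeing the data. Figures were drawn with matplotlib 3.10.9.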

Additional observations from a re-analysis of the deposited data

Results flagged for a closer look

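Among 18 groups of 6 wells (9 members in 2 lines), 3 had a well far from the rest by Dixon's criterion, which chance alone meets in about 1 in 20 groups. Ostn in wild-type well 4 was at 0.831 CPM, the next wild-type well, well 3, at 0.184 CPM, from 10 and 2 counts. Fgf21 in ChR2 well 4 was at 61.5 CPM, and the other ChR2 wells lay between 58.7 and 59.0 CPM. The coefficient of variation of all 6, 1.82%, was under the 4.23% of counting error alone, so this well is not shown to be aberrant. Chil1 in ChR2 well 2 was at 17.2 CPM with the next at 12.5 CPM.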

How the results depend on the processing

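Fndc5, Il15 and Erfe kept their direction under every alternative run and were called under every edgeR, DESeq2 and voom alternative. Fits on TPM of all 12 wells, where the median of all genes moved to 0.35 with a pseudocount of 1, called few genes (607, and 257 with a pseudocount of 0.1, against 3701). With a pseudocount of 1, with or without a filter, 0 members were lower, receptors were 2 higher and 0 lower, regulators 0 lower, and lipid genes 0 higher and 0 lower; regulators higher were 2 with and 1 without the filter, and paralogs higher 1 and 0. With 0.1 all these counts were 0, members higher included, Il15 being at 1.81 (adjusted p = 0.0613) and Erfe at 1.93 (0.0662). Over 10 wells the fit with a pseudocount of 1 called 3395 genes, Fndc5 (-1.17), Il15 (0.97) and Erfe (1.12) among them, with 3 receptors and 0 lipid genes higher. On TPM of 12 wells Chil1 turned to 0.21 (0.23 with 0.1; -0.14 relative to the median) and Angptl4 to 0.0018 with 0.1. Voom called 3 members lower, adding Angptl4 (-0.63) and Chil1 (-0.47), called Metrnl higher (0.36), and put lower receptors at 5. Regulators lower were 4 without wild-type wells 2 and 5 and with upper-quartile scaling, and regulators higher were 4 without a filter. In that order, these fits called 35.2%, 27.2% and 11.5% of all genes. The cause was not tested.

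Replicate numbers did not pair the wells (correlations of deviations from -0.14 to 0.10, best for the own number in 1 of 6). The replicate block left 2641 genes called, the same member counts, 4 regulators lower, and 0 lipid genes higher and 5 lower.

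With 1 well left out, members were 2 higher and 1 to 2 lower (2 without wild-type well 6), receptors 5 to 9 higher and 2 to 4 lower, regulators 4 to 9 higher and 4 to 7 lower, paralogs 4 to 5 higher, and lipid genes 1 higher and 6 to 8 lower. Regulators higher were 4 without ChR2 well 1, 5 or 6 or wild-type well 3, and lower were 4 without any ChR2 well or wild-type well 2 or 5. Metrnl ran from -0.12 (without wild-type well 1) to 0.16 and was also below 0 without ChR2 well 5 or wild-type well 3 or 4. The Il7 difference ran from -0.0900 to 0.165 CPM and was below 0 without ChR2 well 3, 4 or 5 or wild-type well 1, 5 or 6. Depth limits Il7, Ostn and, in wild-type wells 2 and 5, Il15, and in well 2 Erfe.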
